A study of Mus musculus with 9 samples.

Results

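The sinusoidal endothelial cell genes were 10 genes, Lyve1, Clec4g, Pecam1, Cdh5, Kdr, Fcgr2b, Mrc1, Oit3, Eng and Gata4, taken by symbol from a table that listed 51912 genes, 21857 of them nuclear and protein-coding. They are markers of the liver sinusoid lining and of endothelium in general, chosen by name, with earlier results of these data known. All 10 were listed once, all 10 were above 0 in every liver, and all 10 were kept by the filter on low values. They were measured by RNA sequencing of whole liver from 9 fasted mice, 5 given the antisense oligonucleotide (ASO) against apoC-III and 4 given a control ASO, by intraperitoneal injection at 50 mg/kg/week for 8 weeks. The genotype in both groups was Apoe-/- Ndst1 f/f Alb-Cre+ (C57Bl/6 background), so every animal, controls included, lacked apoE and had NDST1, an enzyme that sulfates heparan sulfate, removed by a Cre that the albumin promoter drives in hepatocytes. Endothelial Ndst1 was thus not the target of the deletion. Age, sex and the diet of the sequenced mice were not given in the sources used here.

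Liver sinusoids are lined by a fenestrated endothelium without a continuous basement membrane, across which lipoprotein particles reach hepatocytes. These cells are scavengers: hyaluronan, mannosylated glycoproteins, collagen fragments and immune complexes are taken up through receptors such as stabilin-2, the mannose receptor and FcγRIIb. Their state is held by VEGF from hepatocytes, by BMP9 from stellate cells acting through endoglin and ALK1, and by GATA4, and loss of that state, called capillarization, brings out genes of ordinary capillaries.

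The question was whether the endothelial compartment of the liver differed after 8 weeks without most of the apoC-III message. None of the 10 genes was called different (0 of 10 by limma at an adjusted p under 0.05 and a fold over 1.5), against 2 genes or 0.0167% of the 11968 tested, and none was called without control ASO replicate 4, a liver that stood apart. None reached an unadjusted p under 0.05, where 5.57% of all genes did, and none by an exact permutation test, whose smallest p among the 10 was 0.0635. The 2 groups overlapped for every one of them, where 1.83% of all genes did not overlap. In the apoC-III ASO livers 5 of the 10 had a higher and 5 a lower fitted level, with a median log2 fold change of -0.03, beside -0.001 over all genes tested, of which 5968 were higher and 6000 lower. The members' fold changes ran from -0.50 for Eng to 0.52 for Lyve1 on the log2 scale. For 6 genes, Pecam1, Cdh5, Kdr, Fcgr2b, Mrc1 and Oit3, the 95% interval lay within 2-fold either way. For Lyve1, Clec4g, Eng and Gata4 it reached past 2-fold on 1 side. Without control ASO replicate 4 the interval of Oit3, -0.45 to 1.21 on the log2 scale, reached past 2-fold. Those of Clec4g, Eng and Gata4 then lay within 2-fold, and that of Lyve1 still did not.

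Levels below are TPM of nuclear protein-coding genes, rescaled to 1000000 per liver and divided by a median-of-ratios factor, and TPM already counts per transcript length, so levels can be set side by side between genes. This scale was used because 2 noncoding RNAs, Rn7s1 and Rn7s2, took 64.0% to 83.6% of the deposited TPM and nuclear protein-coding genes only 1.94% to 8.64%. In control ASO replicate 4 the protein-coding share was the lowest and the factor was 0.496, against 0.930 to 1.44 in the other livers. A value of 1 TPM in that liver became 104 rescaled units, against 12.4 to 34.7 units elsewhere, so the fold changes of the 10 genes were also computed without it. For the genes that moved least, this gave a log2 fold change of 0.19 for Fcgr2b, -0.15 for Pecam1 and -0.12 for Cdh5, beside 0.23, -0.16 and -0.10 over all livers. Apoc3, the target of the ASO, was at 450 ± 112 (SD, n = 5) rescaled TPM against 3577 ± 493 (n = 4), 87.4% lower in the apoC-III ASO livers with no overlap, and the exact two-sided permutation p of 0.0159 was the smallest that 5 against 4 livers allow. Depth in reads was unknown, since TPM keeps none. In whole liver, fewer endothelial cells and less RNA per endothelial cell cannot be told apart.

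**Figure D1:**
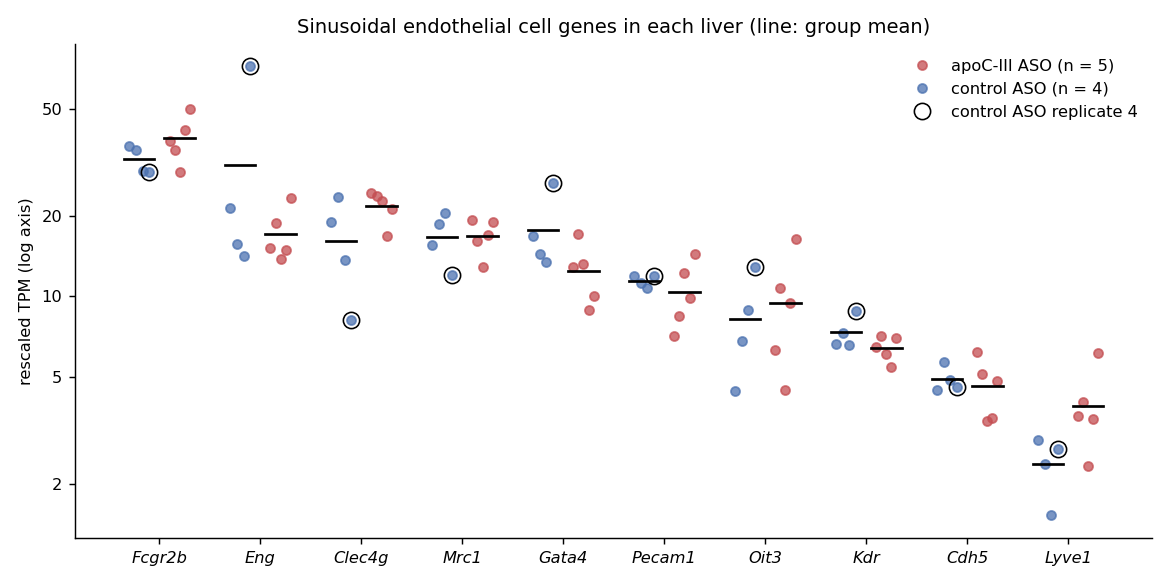
The rescaled TPM of each gene, on a log axis, is plotted for every liver, with control ASO livers in blue, apoC-III ASO livers in red and a line at each group mean. Both colors share a range for all 10 genes, and the ringed point, control ASO replicate 4, is the highest of the 4 controls for Eng, Gata4, Oit3 and Kdr and the lowest for Clec4g, Mrc1 and Fcgr2b.

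The genes spanned about an order of magnitude in rescaled TPM. Fcgr2b was the highest, with a mean of 36.0 over the 9 livers, followed by Eng at 23.2, Clec4g at 19.2, Mrc1 at 16.7, Gata4 at 14.8, Pecam1 at 10.8, Oit3 at 8.93, Kdr at 6.83, Cdh5 at 4.74 and Lyve1 at 3.23. Second place for Eng came from control ASO replicate 4, and without that liver its mean was 17.1, below Clec4g at 20.6 and Mrc1 at 17.3. Each gene's range over the livers overlapped that of its neighbor in this order. Within livers, Kdr was above Cdh5 in all 9, Fcgr2b was above Eng and Cdh5 above Lyve1 in 8 of 9, and the other neighbors kept their order in 4 to 7 of 9 livers. The sinusoidal scavenger genes outside the 10 included Stab1, between 38.5 and 239, and Stab2, between 34.9 and 77.0, and of the defining markers of other vessels, Cd34, a marker of capillary endothelium, was between 0.374 and 1.83, Vwf, von Willebrand factor of larger vessels, between 2.28 and 12.8, and Plvap, the diaphragm protein of fenestrae and of ordinary capillaries, between 8.04 and 17.0. Vwf and Plvap thus lay within the range of the members. The lymphatic marker Pdpn was listed at 0 in at least 1 liver of each group and reached no more than 0.46.

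Promoter sequence was at hand for 5 of the 10 genes, Clec4g, Kdr, Fcgr2b, Mrc1 and Eng, from RefSeq on GRCm38.p6. The table gives 250 bases before the transcription start, and the 50 bases after it were left out. Gata4 encodes a factor that binds words with GATA at their core, and endothelial genes are widely controlled by ETS factors, so both kinds of word were searched on both strands: AGATAA or AGATAG or TGATAA or TGATAG for GATA factors, and GGAAG for ETS factors. Of the 5 genes, only Clec4g held a GATA word and all 5 held the ETS word. Among all 32851 promoters of that length, 26.5% held a GATA word and 64.1% held GGAAG. Shown are Clec4g on chr8:3720652-3720901 (minus strand) because it is the one with a GATA word, and Kdr on chr5:75978456-75978705 (minus strand) and Eng on chr2:32646345-32646594 (plus strand) as signaling receptors without one. Capitals mark the words found. In Clec4g 2 copies of GGAAG run on from each other and share a base, the GATA word follows them at 62 bases before the start, and GATA and ETS words do not overlap.
Clec4g: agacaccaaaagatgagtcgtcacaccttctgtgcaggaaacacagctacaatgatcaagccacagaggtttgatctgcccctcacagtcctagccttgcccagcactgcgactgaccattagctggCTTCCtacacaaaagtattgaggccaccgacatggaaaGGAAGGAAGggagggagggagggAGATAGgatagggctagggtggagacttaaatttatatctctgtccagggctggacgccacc
Kdr: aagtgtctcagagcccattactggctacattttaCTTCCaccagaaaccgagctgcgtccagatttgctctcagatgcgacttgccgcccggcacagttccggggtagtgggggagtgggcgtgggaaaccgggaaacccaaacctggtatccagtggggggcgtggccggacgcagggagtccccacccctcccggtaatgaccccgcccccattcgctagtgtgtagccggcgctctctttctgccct
Eng: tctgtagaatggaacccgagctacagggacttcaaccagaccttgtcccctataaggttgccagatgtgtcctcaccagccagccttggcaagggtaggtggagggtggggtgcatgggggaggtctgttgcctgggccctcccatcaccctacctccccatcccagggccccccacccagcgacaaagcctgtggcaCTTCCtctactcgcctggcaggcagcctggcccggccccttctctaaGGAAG
These are matches of letters. No binding was measured, and no match says only that these letters are not in this window.

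Lyve1 had the largest positive difference of the 10. Lyve1 (ENSMUSG00000030787, GRCm38 chromosome 7, 110850607 to 110863239) encodes the hyaluronan receptor that marks midlobular sinusoids and lymphatics. Its rescaled TPM was 3.57, 4.02, 2.33, 3.47 and 6.16 in apoC-III ASO replicates 1 to 5 and 2.92, 2.36, 1.52 and 2.70 in control ASO replicates 1 to 4. In 4 of the 5 apoC-III ASO livers it was above every control, and the groups overlapped through apoC-III ASO replicate 3 alone. The means were 3.91 ± 1.40 (SD, n = 5) and 2.38 ± 0.615 (n = 4). Fitted over all genes, its log2 fold change was 0.52 (SE 0.27, 95% interval -0.07 to 1.11, adjusted p = 0.887), and 0.58 without control ASO replicate 4. With an unadjusted p of 0.0811, Lyve1 stood nearest of the 10 to the threshold. Its log2 fold change was 0.86 after protein-coding rescaling without the factors, where the median of all genes was 0.41. On TPM as deposited without a filter it was 0.096, where the mean of Lyve1, 0.164 TPM, was below the 1 added before taking logs. The adjusted p was from 0.451 to 1 over 18 alternatives.

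Clec4g (ENSMUSG00000074491, chromosome 8, 3707064 to 3720651) encodes LSECtin, a C-type lectin of sinusoidal cells that binds glycans and activated T cells. It was at 24.4, 23.6, 22.8, 16.8 and 21.2 rescaled TPM in the apoC-III ASO livers and at 18.9, 23.5, 13.6 and 8.18 in the controls. The highest values of both groups were alike, and control ASO replicates 3 and 4 were below every apoC-III ASO liver. The fitted log2 fold change of Clec4g was 0.50 (SE 0.28, 95% interval -0.12 to 1.11, adjusted p = 0.900). Without control ASO replicate 4 it was 0.23.

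Fcgr2b (ENSMUSG00000026656, chromosome 1, 170958617 to 170976547) encodes the inhibitory Fc receptor by which sinusoidal cells clear small immune complexes, and it is also made by macrophages and B cells. It measured 37.9, 35.2, 29.2, 41.9 and 50.02 rescaled TPM under apoC-III ASO and 36.5, 35.2, 29.4 and 29.0 under control ASO. The 2 highest values were those of apoC-III ASO replicates 4 and 5, and the lowest values of the groups nearly coincided. The fold was 1.18 on the log2(rescaled TPM + 1) scale (95% interval 0.858 to 1.61, adjusted p = 0.932).

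Mrc1 (ENSMUSG00000026712, chromosome 2, 14229392 to 14332057), the mannose receptor, takes up mannosylated glycoproteins and collagen fragments and is shared with Kupffer cells. Its rescaled TPM was 19.2, 16.0, 12.9, 16.9 and 19.0 under apoC-III ASO and 15.6, 18.6, 20.4 and 12.0 under control ASO. The apoC-III ASO livers all lay inside the range of the controls. Its log2 fold change, 0.03 (SE 0.22, 95% interval -0.45 to 0.51, adjusted p = 0.998), was the smallest of the 10, and it was -0.11 without control ASO replicate 4.

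Because Fcgr2b and Mrc1 are shared with macrophages, the Kupffer cell and macrophage markers are given beside them. Of 14 tested, 9 were higher and 5 lower, none was called, and the median log2 fold change was 0.14. The defining Kupffer genes were present in both groups: Clec4f, a galactose-binding lectin, was at 28.9 ± 8.83 (SD) against 35.1 ± 17.1 rescaled TPM, Cd5l at 34.0 ± 3.37 against 31.2 ± 6.49, and Adgre1, which encodes F4/80, at 2.10 ± 0.385 against 2.30 ± 0.393 (n = 5 and 4). Slc40a1, the iron exporter ferroportin, had a log2 fold change of 0.75 at an unadjusted p of 0.0327 and an adjusted p of 0.876. The summed level of these markers was 351 to 618 under apoC-III ASO and 259 to 518 under control ASO. Slc40a1 was the largest part of that sum, at 278 ± 74.6 (SD) against 173 ± 82.5 rescaled TPM. How much of the Fcgr2b and Mrc1 signal came from macrophages was not tested.

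Oit3 (ENSMUSG00000009654, chromosome 10, 59422958 to 59441778) encodes a secreted zona pellucida domain protein found in the liver sinusoid lining. It varied widely in both groups, at 6.32, 10.7, 4.47, 9.40 and 16.4 rescaled TPM under apoC-III ASO and 4.41, 6.82, 8.92 and 12.9 under control ASO. The coefficient of variation was 48.6% and 43.5%. The apoC-III ASO values spread from near the lowest control value to past the highest. A log2 fold change of 0.15 (SE 0.37, 95% interval -0.65 to 0.95, adjusted p = 0.987) became 0.38 without control ASO replicate 4 and -0.08 without control ASO replicate 1.

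The genes of the endothelial junction differed little. Pecam1 (ENSMUSG00000020717, chromosome 11, 106654217 to 106750628) encodes the adhesion molecule CD31 and was at 7.08, 8.43, 12.2, 9.86 and 14.3 rescaled TPM under apoC-III ASO. The 4 controls lay close together, at 11.9, 11.2, 10.7 and 11.9. The apoC-III ASO livers surrounded them, with 3 below and 2 above all 4, and the coefficient of variation was 28.0% against 5.18%. This gave a log2 fold change of -0.16 (SE 0.23, 95% interval -0.67 to 0.34, adjusted p = 0.966).

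Cdh5 (ENSMUSG00000031871, chromosome 8, 104101625 to 104144511) encodes VE-cadherin, the cadherin of endothelial adherens junctions. It measured 6.17, 5.13, 3.41, 3.51 and 4.81 rescaled TPM under apoC-III ASO and 4.47, 5.68, 4.88 and 4.60 under control ASO. Its lowest values were in apoC-III ASO replicates 3 and 4, and its highest was in apoC-III ASO replicate 1. Cdh5 had a log2 fold change of -0.10 (SE 0.23, 95% interval -0.59 to 0.40, adjusted p = 0.987).

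Kdr (ENSMUSG00000062960, chromosome 5, 75932827 to 75978458), the main signaling receptor for VEGF-A, was the member measured most tightly. Its rescaled TPM was 6.48, 7.12, 6.09, 5.45 and 6.996 under apoC-III ASO and 6.62, 7.27, 6.60 and 8.85 under control ASO. Apart from control ASO replicate 4, the highest value, every liver was between 5.45 and 7.27. The fold was 0.893 (95% interval 0.661 to 1.21, adjusted p = 0.952), with the smallest SE of the 10, 0.20 on the log2 scale, and without that liver the log2 fold change moved from -0.16 to -0.08. Vegfa, its ligand and largely a product of hepatocytes, was at 454 ± 92.9 (SD, n = 5) against 483 ± 87.2 (n = 4) rescaled TPM, a log2 fold change of -0.09. Flt1, the decoy-like VEGF receptor, was at 4.66 ± 1.07 against 4.17 ± 0.731. Of the 8 VEGF and angiopoietin ligands listed 4 were tested, 2 higher and 2 lower, and none was called.

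Eng (ENSMUSG00000026814, chromosome 2, 32646595 to 32682669), which encodes endoglin, the co-receptor through which BMP9 and BMP10 act on endothelium, had the largest negative difference and it rested on 1 liver. Its rescaled TPM was 15.1, 18.7, 13.7, 14.8 and 23.3 under apoC-III ASO and 21.3, 15.6, 14.1 and 72.1 under control ASO. The value of 72.1 in control ASO replicate 4 was far above the other 8 livers, which lay between 13.7 and 23.3. As deposited, Eng in that liver was 0.695 TPM, within the 0.648 to 1.71 TPM of the others. The log2 fold change of -0.50 (SE 0.41, 95% interval -1.41 to 0.40, adjusted p = 0.918) became 0.01 (95% interval -0.52 to 0.54) without that liver, where the control mean was 17.0 ± 3.78 (SD, n = 3) against 17.1 ± 3.93 (n = 5).

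The same liver was the highest for some other endothelial genes and the lowest for others. Acvrl1, which encodes ALK1, the receptor that works with endoglin, was 6.03 there and 0.461 to 2.54 in the other livers, with a log2 fold change of -0.61 that became -0.29 without it. Tek, the angiopoietin receptor TIE2, was 11.3 there and 2.58 to 5.84 elsewhere, and -0.45 became -0.11. Vwf was 12.8 there and 2.28 to 6.07 elsewhere. For Bmpr2, Tgfbr1, Tgfbr2 and Tgfbr3, the other receptors of the pathway tested, it was not the highest, and for Tgfbr1 it was the lowest. The hemoglobin genes were highest in that liver too, with 1478 rescaled TPM of Hbb-bs against 10.9 to 591 in the rest, whereas Alas2, the heme synthesis enzyme of red cell precursors, was 29.2 there and 8.03 to 33.0 elsewhere. The platelet gene Pf4 was 47.4 there and 0 to 16.9 elsewhere. Whether blood or large vessels in the piece of tissue bear on the Eng value was not tested.

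Gdf2, which encodes BMP9, was low at 1.43 ± 0.754 (SD, n = 5) against 1.84 ± 0.751 (n = 4) rescaled TPM, a log2 fold change of -0.25 that was not called. Among the 10 ligands, receptors and SMADs of the BMP and TGF-β pathway that were tested, 4 were higher and 6 lower, none was called and the median was -0.06, or -0.11 without control ASO replicate 4. The 7 BMP target genes tested were all higher under apoC-III ASO in the fit, with a median of 0.41, and none was called. Id3, an inhibitor of helix-loop-helix factors, was the 1 target of the 7 whose groups did not overlap, at 42.9, 36.9, 40.6, 14.7 and 17.7 against 12.8, 14.1, 10.7 and 8.29 rescaled TPM. Its log2 fold change was 1.24 (SE 0.34, unadjusted p = 0.00360), and it did not pass the adjustment over all genes (adjusted p = 0.762). ID3 is made by most liver cell types and is not a mark of endothelium.

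Gata4 (ENSMUSG00000021944, chromosome 14, 63198922 to 63271692) encodes the transcription factor that holds sinusoidal identity. It is not particular to endothelium and is expressed by stellate cells among others. It was at 12.9, 17.1, 13.2, 8.92 and 9.98 rescaled TPM under apoC-III ASO and 16.8, 14.4, 13.4 and 26.5 under control ASO. The lowest values were in apoC-III ASO replicates 4 and 5 and the highest was in control ASO replicate 4, but apoC-III ASO replicate 2 stood above 3 of the 4 controls. The means were 12.4 ± 3.18 (SD, n = 5) and 17.8 ± 5.98 (n = 4). The log2 fold change was -0.47 (SE 0.26, 95% interval -1.04 to 0.10, unadjusted p = 0.0985, adjusted p = 0.899), and -0.27 without control ASO replicate 4. After protein-coding rescaling without the factors it was -0.015 (adjusted p = 0.982), where the median of all genes was 0.41. On TPM as deposited without a filter it was -0.086, where the mean of Gata4, 0.737 TPM, was below the 1 added before taking logs. Over its 19 alternatives the adjusted p was 0.796 to 1.

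Stellate cell markers are given beside Gata4 because the gene is shared. Of 12 tested, 3 were higher and 9 lower with a median of -0.27, and none was called. Lrat encodes the enzyme that esterifies retinol in stellate cells. It was between 0.977 and 1.63 rescaled TPM under apoC-III ASO and between 2.29 and 5.28 under control ASO. The groups did not overlap, with a log2 fold change of -0.89 (unadjusted p = 0.00510, adjusted p = 0.842). Dcn, the proteoglycan decorin, had a log2 fold change of -0.57 (unadjusted p = 0.0388, adjusted p = 0.876), which was -0.36 without control ASO replicate 4 (unadjusted p = 0.119). Reln was at 22.9 ± 5.51 (SD) against 25.2 ± 4.95 (n = 5 and 4). The summed level of these markers was 146 to 185 against 174 to 308. Dcn was the largest part of that sum, at 78.2 ± 13.5 (SD) against 120 ± 40.9 rescaled TPM. The part of stellate cells in the Gata4 value, or that of hepatocytes, was not tested.

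**Figure D2:**
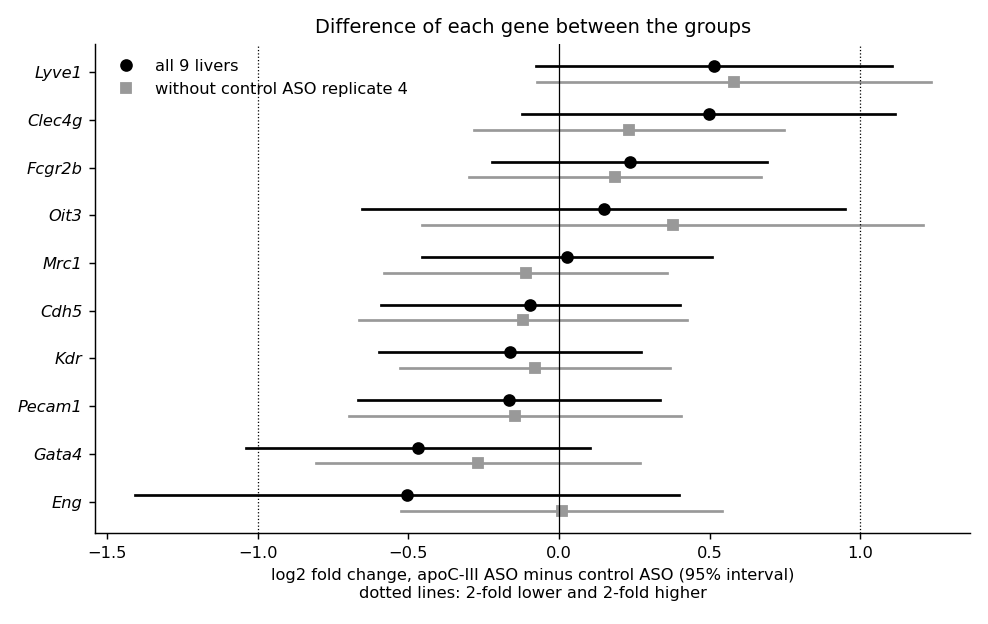
Each gene's log2 fold change (apoC-III ASO minus control ASO) is drawn with its 95% interval from limma, in black over all 9 livers and in gray without control ASO replicate 4, and dotted lines mark 2-fold. All 10 black intervals hold 0, and the Eng point moves from -0.50 to 0.01 when that liver is left out.

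Some livers were high or low for most of the members. Relative to each gene's own mean over the 9 livers, apoC-III ASO replicate 5 was above the mean for 9 of 10 genes and the highest liver for 4. In apoC-III ASO replicate 3 only 2 of 10 were above their mean. Control ASO replicate 4 was the highest for 3 genes (Eng, Gata4 and Kdr) and the lowest for 3. The summed level of the 10 genes was 120 to 172 rescaled TPM in the apoC-III ASO livers and 124 to 189 in the controls, and the high end of the controls was control ASO replicate 4, of whose sum Eng was the largest share. On TPM as deposited, that liver was instead the lowest for 9 of the 10 genes, with a sum of 1.82 TPM against 4.97 to 11.2 TPM in the others, and control ASO replicate 1 was the highest for 5.

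**Figure D3:**
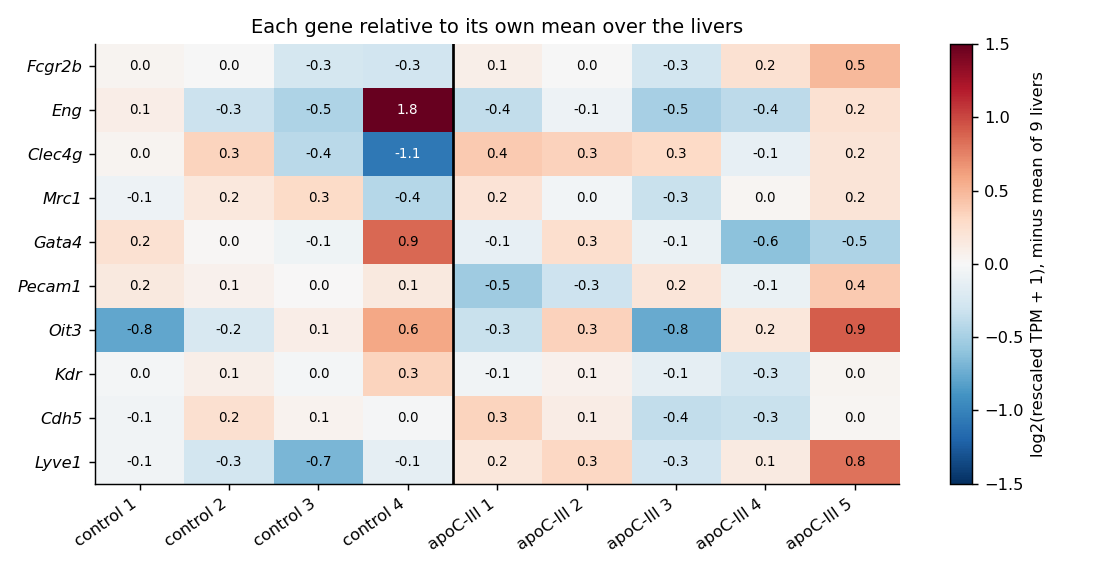
Each cell gives log2(rescaled TPM + 1) of a gene in a liver minus that gene's mean over the 9 livers, from blue (below) to red (above) with colors capped at 1.5 either way, and with the controls left of the black line. The strongest cells, red for Eng and blue for Clec4g, are both in control ASO replicate 4, and apoC-III ASO replicate 5 is above the mean in 9 of 10 rows.

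Ratios between 2 members within a liver do not depend on the scale. Of the 45 pairs, 2 had ratios that did not overlap between the groups, where 1.88% of all gene pairs did not. The ratio of Lyve1 to Eng was 0.236, 0.214, 0.170, 0.234 and 0.264 under apoC-III ASO and 0.137, 0.151, 0.108 and 0.0375 under control ASO. The ratio of Lyve1 to Gata4 was 0.277, 0.236, 0.177, 0.389 and 0.617 against 0.174, 0.164, 0.113 and 0.102, so the nearest livers were almost level. Both pairs were chosen after their values were seen, both hold Lyve1, and no test was made of them.

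None of the other endothelial genes listed was called. Of 14 further sinusoidal genes tested 11 were higher and 3 lower, none reached an unadjusted p under 0.05 and the median log2 fold change was 0.08. Stab2, the hyaluronan and heparin scavenger receptor stabilin-2, was at 60.0 ± 12.8 (SD, n = 5) against 58.4 ± 19.2 (n = 4) rescaled TPM, a log2 fold change of 0.07. Stab1 varied several-fold within both groups and was at 119 ± 81.1 against 121 ± 79.8, a log2 fold change of -0.15. Its control mean drew on control ASO replicate 4, at 239 against 66.2 to 98.7 in the other controls. Without that liver both signs changed, to 0.24 for Stab1 and -0.14 for Stab2. Of 18 general endothelial genes 9 were higher and 9 lower and the median was -0.03, or 0.03 without control ASO replicate 4. Among 10 endothelial transcription factors 9 were higher and 1 lower and the median was 0.20, or 0.11 without that liver.

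Genes of larger vessels and of capillarization, 9 tested, gave 5 higher and 4 lower with a median of 0.01, or 0.003 without control ASO replicate 4, and none called. Plvap was at 14.4, 12.2, 9.92, 8.04 and 11.2 rescaled TPM under apoC-III ASO and 15.1, 17.0, 13.6 and 16.9 under control ASO. Only apoC-III ASO replicate 1 stood inside the range of the controls. The log2 fold change was -0.47 at an unadjusted p of 0.0467 and an adjusted p of 0.876, and without control ASO replicate 4 the unadjusted p was 0.0828.

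The 5 angiocrine genes tested gave 1 higher and 4 lower with a median of -0.43, and none was called. Ctgf, a matricellular growth factor that several liver cells make, was between 2.04 and 27.9 against 22.8 and 34.8 rescaled TPM (log2 fold change -1.37, unadjusted p = 0.0213, adjusted p = 0.860). Wnt2, the sinusoidal Wnt that supports pericentral hepatocytes, was below the filter at 1.03 ± 0.422 against 0.629 ± 0.354 (SD, n = 5 and 4), as was Wnt9b, the other Wnt of central vein endothelium, at 0.141 ± 0.0555 against 0.369 ± 0.185. Rspo3, which strengthens Wnt signals, was between 1.11 and 4.46 against 2.29 and 4.59, a log2 fold change of -0.43 (adjusted p = 0.914). Of 9 endothelial lipid handling genes 4 were higher and 5 lower with a median of -0.16 and none called. Which cells of the whole liver gave the values of this list was not tested. Gpihbp1, which anchors lipoprotein lipase on capillaries, had a log2 fold change of 0.16. Fabp5, a fatty acid binding protein, was between 5.17 and 14.0 against 14.4 and 32.8, so the groups did not overlap (log2 fold change -1.05, unadjusted p = 0.00649, adjusted p = 0.853). Fabp4, another of these proteins, went the other way with overlapping groups (log2 fold change 0.62, unadjusted p = 0.0921, adjusted p = 0.899). Without control ASO replicate 4 it was at 0.94 (unadjusted p = 0.00802, adjusted p = 0.806).

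The markers of the remaining cell types, summed over each list, overlapped between the groups. Hepatocyte markers, 8 tested, were 2 higher and 6 lower with a median of -0.28, or -0.18 without control ASO replicate 4. Alb was between 15301 and 39704 against 19505 and 25963 rescaled TPM, and Serpina1c had a log2 fold change of -0.82 (unadjusted p = 0.0205, adjusted p = 0.860). Cholangiocyte markers (3 tested) and lymphatic markers (2 tested) had none at an unadjusted p under 0.05, and Krt7, Epcam and Pdpn were below the filter. The 2 lymphatic markers tested were Prox1 and Reln, and Reln was also counted among the stellate cell markers. Their count and sum are therefore not particular to lymphatics. Ccl21a was listed under 2 identifiers and left out of the counts: the one above the filter was at 3.97 ± 1.66 (SD, n = 5) against 1.14 ± 1.55 (n = 4), with a log2 fold change of 1.41 (unadjusted p = 0.0104, adjusted p = 0.860) and overlapping groups. Of 7 red cell and platelet markers 1 was higher and 6 lower with a median of -0.33, and without control ASO replicate 4 the median was 0.60.

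**Figure D4:**
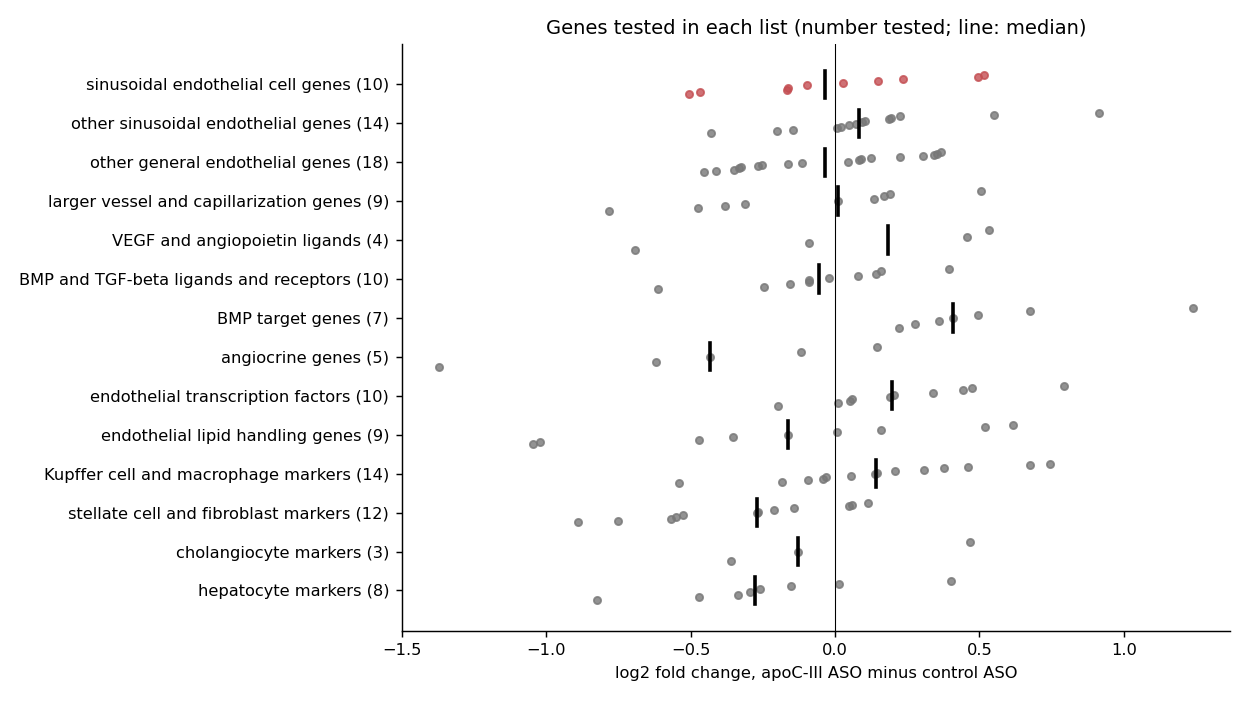
Each point is the log2 fold change (apoC-III ASO minus control ASO) of a tested gene, with a row per list, the number tested in brackets and a black line at the median. The lymphatic markers and the red cell and platelet markers are not drawn. The 10 sinusoidal endothelial cell genes, in red, lie between -0.50 and 0.52 on both sides of 0, and no gene in any row was called.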

How the data were processed

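Livers of 9 mice were sequenced as ribosomal RNA-depleted, stranded, single-end libraries. The authors deposited 1 table of TPM per gene, and the submitters' processing notes name kallisto 0.43.1 and GRCm38. The methods of the study describe read counts from another aligner, which were not used here. Identifiers were matched to GENCODE M21 (51719 of 51912). TPM of nuclear protein-coding genes was rescaled to 1000000 per liver, divided by median-of-ratios factors from 12263 genes, and tested as log2(x + 1) with limma 3.58.1 (trend, two-sided, R 4.3.3) for genes with a mean of at least 1, with Benjamini-Hochberg adjustment over 11968 genes. A gene was called at an adjusted p under 0.05 and a fold over 1.5, the thresholds of the study. Fold changes are on the log2(x + 1) scale, which understates the change of low genes. Named were the 10 members, Apoc3, companions of known role, defining markers of other cell types and, in each other list, up to 3 genes with the smallest unadjusted p under 0.05. Fcn3 had no matching row. Gpihbp1, Fabp4, Wnt2, Wnt9b, Rspo3, Ptprb, Pf4, the other BMP and TGF-β receptors and the pairs with Lyve1 were picked once their values were known. The members and lists were chosen with earlier results of these data known. The labels number livers within groups without further detail, so p-values measure the spread between these livers only. The fit was tested on simulated data. Alternatives changed the scale, filter, pseudocount, trend, weights, the replicate block and the livers included.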

Additional observations from a re-analysis of the deposited data

Results flagged for a closer look

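In 7 of 78 groups checked, 1 liver lay far from the others of its group by Dixon's test at the 95% level, which chance gives in about 1 group in 20. Of these, 3 were in control ASO replicate 4. Eng was 72.1 rescaled TPM in control ASO replicate 4 and 14.1 to 21.3 in the other controls. Hbb-bs, a hemoglobin gene, was 1478 in the same liver against 10.9 to 108 in the other controls, and 591 in apoC-III ASO replicate 4 against 23.0 to 56.9 in the other apoC-III ASO livers. Krt7, a keratin of bile ducts, was 0.611 in control ASO replicate 4 against 0.419 to 0.450. Krt19, another bile duct keratin, was 4.35 in apoC-III ASO replicate 5 against 0 to 1.22. Dcn was 102 in apoC-III ASO replicate 5 against 70.0 to 74.7, and Tek was 5.84 in apoC-III ASO replicate 2 against 2.58 to 3.35.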

How the results depend on the processing

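No member was called in any of the 21 alternatives. An unadjusted p under 0.05 by limma was reached by 1 member after protein-coding rescaling without the factors. The same held for 1 member without apoC-III ASO replicate 3 and for 1 without control ASO replicate 2. At a mean of at least 5, 8 members were tested. Leaving out 1 liver at a time gave a median of the members between -0.10 and 0.04, 0 to 1 genes called higher, 1 to 3 called lower, and for Mrc1 -0.11 to 0.13, for Oit3 -0.080 to 0.38 and for Eng -0.75 to 0.0087. With TPM as deposited, 2 members passed the filter with a median of 0.22, 5 genes were called higher and 6 lower, and Apoc3 was at -2.62 (adjusted p = 0.104, from 7.74e-05 to 1 over its alternatives). With TPM as deposited and median-of-ratios factors, 1 gene was called higher and 1 lower. Without the factors after protein-coding rescaling, the median of the members was 0.38 and that of all genes 0.41, 1 gene was called lower, and Pecam1 was at 0.27, Cdh5 at 0.29 and Kdr at 0.25. Without a filter 1 gene was called lower, and without a trend 1. With array weights Mrc1 was at -0.10. In 2 alternatives chosen after seeing the data, TPM as deposited without a filter called 0 genes lower with Apoc3 at -2.62, and the same without control ASO replicate 4 called 0 with Apoc3 at -3.21, Clec4g at -0.050, Fcgr2b at -0.10 and Mrc1 at -0.21. The exact permutation test called 0 genes lower, with 631 genes at an unadjusted p under 0.05. With only 126 ways to split the livers, its p-values were too coarse for a few genes to pass the adjustment. Its lack of calls, Apoc3 included, therefore decides nothing. Same-numbered livers were not stated to be paired, and their deviations correlated by 0.067, 0.119, 0.028 and 0.190. The replicate block called 1 gene higher, with Mrc1 at -0.018 and Oit3 at -0.063, and apoC-III ASO replicate 5, alone in its block, added nothing. The cause of these shifts was not tested. Depth in reads was unknown, and only 2 of the 10 members had a mean TPM as deposited of at least 1.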
